A study of Homo sapiens with 21 samples.

Results

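The nuclear-encoded respiratory chain genes of HK-2 cells were followed under cyclosporine A. HK-2 is an established line of immortalised human cells that came from the epithelium of the renal proximal tubule. The members are the rows of the mRNA count table whose symbol starts with NDUFA, NDUFB, NDUFC, NDUFS, NDUFV, UQCR, COX4I, COX5, COX6, COX7, COX8 or ATP5, together with SDHA, SDHB, SDHC and SDHD, without symbols that end in P and digits. The rule took 93 of the 23368 rows and left out the pseudogenes ATP5EP2 and UQCRBP1. Of the 93, 85 encode subunits or isoforms assigned to a complex, with 37 in complex I, 4 in complex II, 9 in complex III, 19 in complex IV and 16 in complex V. A further 4 are NDUFAF assembly factors, and the last 4 match by prefix only (ATP5S, ATP5SL and the read-through genes ATP5J2-PTCD1 and NDUFC2-KCTD14). The rule used names and no measured value.

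The CsA group received cyclosporine A at 5 µg/mL for 48 h, and the Veh group received the vehicle, 0.1% ethanol, for the same time, with 4 mRNA libraries each. Cyclosporine A binds cyclophilins and so inhibits the phosphatase calcineurin; the series asks which microRNAs and mRNAs take part in its renal toxicity. Argonaute-bound RNA was collected separately by PAR-CLIP after 24 h of either treatment, with 100 µM 4-thiouridine. All libraries come from the same cell line. Nothing in the labels says that replicates were separate cultures, and p-values therefore reflect only the spread between libraries, which may be technical.

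The respiratory chain passes electrons from NADH (complex I) and succinate (complex II) through coenzyme Q to complex III, cytochrome c and complex IV, where oxygen is reduced. Complexes I, III and IV pump protons across the inner mitochondrial membrane, and complex V, the ATP synthase, uses the gradient to make ATP. Proximal tubule cells of the kidney depend on this pathway for salt and solute transport. Apart from complex II, whose subunits are all nuclear, each complex also holds subunits encoded by mitochondrial DNA, and those are not members.

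Total counts were 3965431 to 5001669 in CsA libraries and 4289120 to 7041604 in Veh libraries. The members took 0.433% to 0.467% of the counts in CsA libraries and 0.415% to 0.496% in Veh libraries, ranges that overlapped. Of 12 proximal tubule markers 4 passed the filter on low counts, and SLC22A6, SLC22A8 and SLC5A12 were at 0 in all libraries. CPM are counts scaled to library size after TMM normalization, except where stated and in the marker sums here, which were scaled to total counts only. The 12 together summed to 345.2 to 351.3 CPM in CsA libraries and 303.8 to 323.4 CPM in Veh libraries, but those tested went different ways. MME had a log2 fold change, CsA over Veh, of 1.73, PDZK1 of -2.01, GGT1 of -0.62 and SLC5A2 of 0.03, the last not called by the test described below. Of 6 epithelial and kidney lineage markers 5 passed, with KRT8, KRT18 and PAX8 called higher (0.42, 0.71 and 0.19) and EPCAM and CDH1 lower (-0.37 and -2.46). Markers of other cell types passed in 2 of 14 cases and summed to 6.21 to 8.07 CPM in CsA libraries and 16.9 to 23.3 CPM in Veh libraries. Those that passed, COL1A1 and SLC12A3, were both called lower (-1.52 and -0.97). COL1A1 alone had 4.40 to 6.21 CPM after TMM in CsA libraries and 12.1 to 19.3 CPM in Veh libraries. UMOD, AQP2, PECAM1, PTPRC and CD3E were among the markers at 0. The part of these marker differences in the results was not tested.

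After 48 h of cyclosporine A the respiratory chain genes did not move as a block. Of the 84 members that passed the filter, 20 were called higher and 17 lower in CsA cells (edgeR quasi-likelihood test, Benjamini-Hochberg adjusted p under 0.05 over all 12855 genes tested). Among all genes tested, 33.3% were called higher and 33.5% lower. The 37 called members are 44.0% of those tested, against 66.9% of all genes and 67.6% of the 11629 genes within the members' range of mean counts (18.2 to 1652). The median log2 fold change, CsA over Veh, was -0.01 over the tested members, with quartiles of -0.16 and 0.19, and -0.00 over all genes.

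Changes were small as well as mixed. The median absolute log2 fold change was 0.17 for the members and 0.38 for all genes tested, at median standard errors of 0.09 and 0.10. A call with an absolute log2 fold change of at least 0.5 was made for 9 members, or 10.7%, against 38.2% of all genes. Levels did not overlap between the groups for 26 of the 84 tested members and for 7444 of the 12855 genes tested. Such a separation, given below for single genes, was therefore common in the whole table. For 46 of the 47 members not called, the 95% interval of the log2 fold change lay within 0.5 of 0 on both sides. Over all genes tested this held for 2995 of the 4258 not called. The split of the calls depended on the scaling and the tool: it was 16 higher and 26 lower with upper-quartile scaling, which moved the median of all genes by -0.08, and 18 higher and 9 lower with DESeq2. The lower calls fell to 11 without CsA replicate 4 or without Veh replicate 3.

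**Figure D1:**
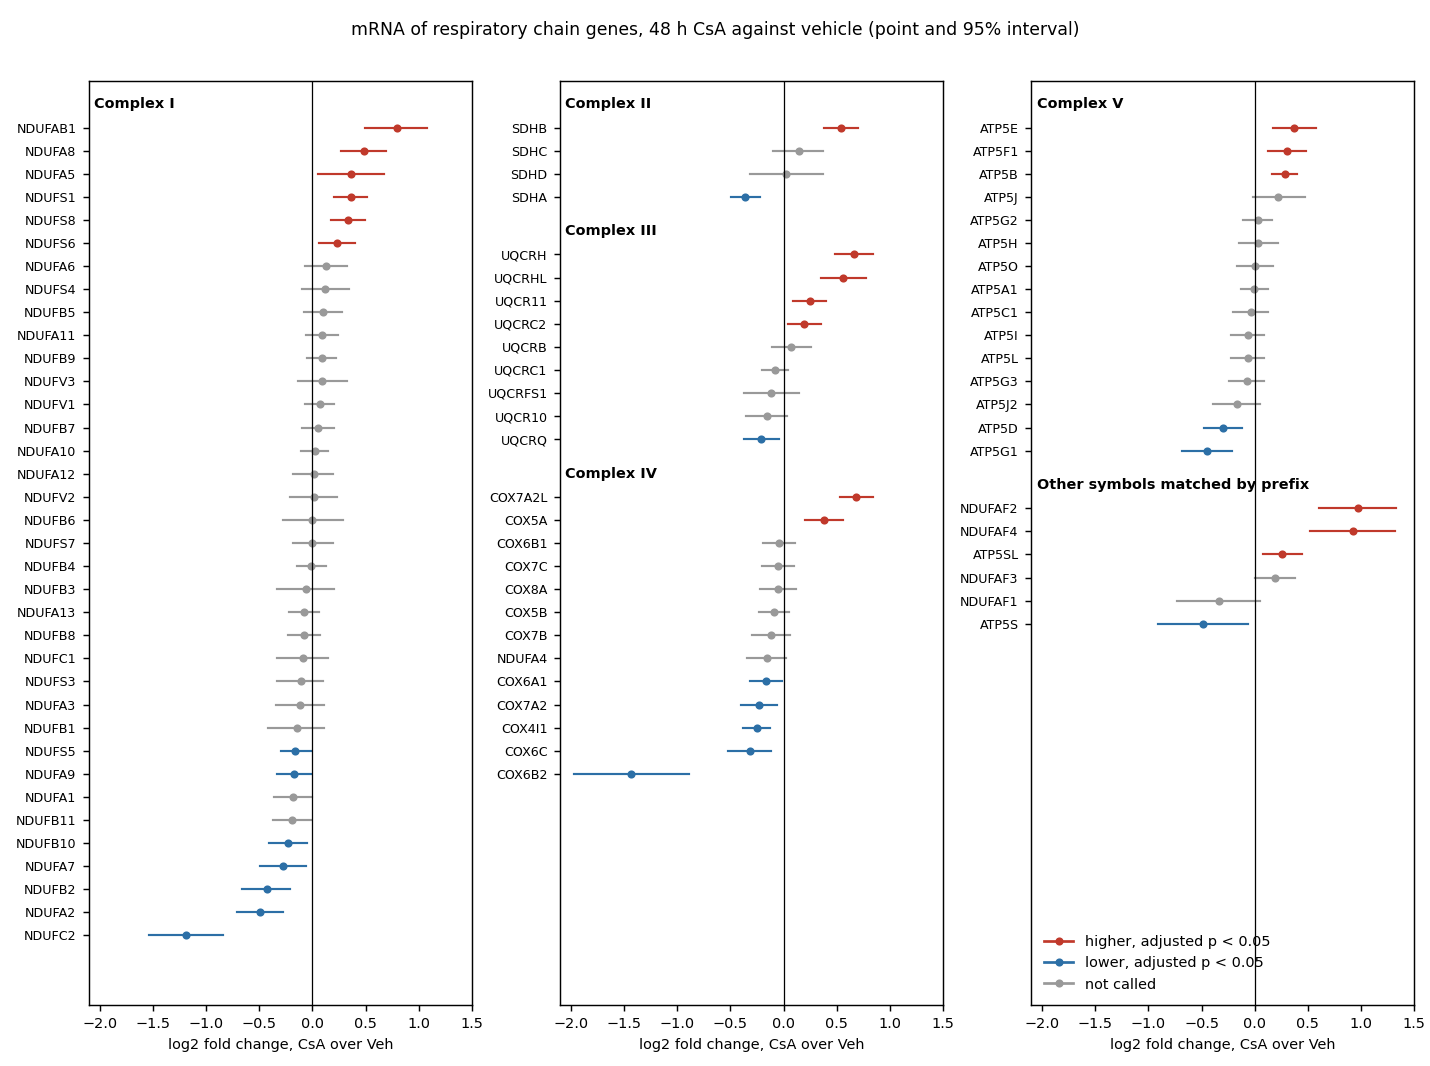
Log2 fold change of the tested members that are reported here by name, CsA over Veh (x axis), with its 95% interval, grouped by complex; red marks calls that were higher, blue calls that were lower, and grey genes not called. In every complex some genes lie on each side of 0, and most intervals stay within 0.5 of it.

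**Figure D2:**
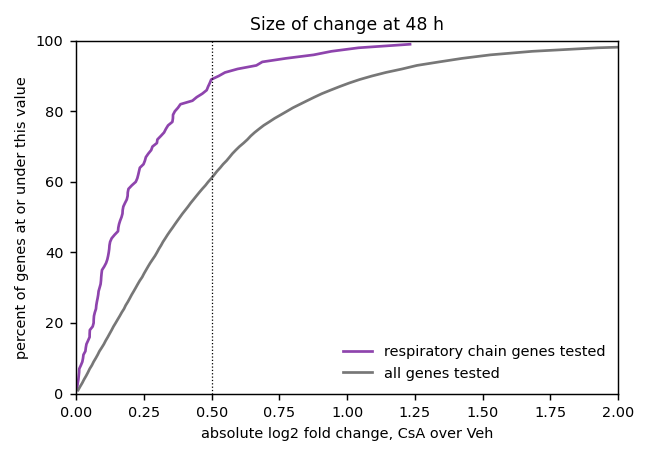
Percent of genes (y axis) with an absolute log2 fold change at or under the value on the x axis, for the 84 tested members and for all 12855 genes tested. At the dotted line at 0.5 the members' curve has reached 89.3% and that of all genes 61.1%.

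Complex I, the NADH dehydrogenase, had 7 subunits called higher and 7 lower among 37, and a median log2 fold change of 0.00. Its 7 core subunits, which carry the flavin and iron-sulfur centres, had 3 higher calls and no lower one, and its 30 accessory subunits had 4 higher and 7 lower, beside the 33.3% higher and 33.5% lower of all genes. The difference between core and accessory subunits was not tested. Without CsA replicate 3, CsA replicate 4, Veh replicate 2 or Veh replicate 3 the lower calls in complex I were 4.

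NDUFS1, the largest core subunit and a carrier of iron-sulfur clusters, had 86.6, 86.2, 86.0 and 69.0 CPM in CsA replicates 1 to 4, against 59.3, 62.2, 63.5 and 73.2 CPM in Veh replicates 1 to 4. Here CsA replicate 4 fell inside the Veh range, and the log2 fold change was 0.36 ± 0.08 (SE; edgeR adjusted p = 4.95e-05). NDUFS8, another core subunit, rose by 0.33 ± 0.08 (edgeR adjusted p = 0.000378). Among the core subunits not called were NDUFV1 and NDUFV2, which help form the NADH-oxidising module, with log2 fold changes of 0.07 and 0.01.

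NDUFAB1 encodes the mitochondrial acyl carrier protein, which sits in complex I and also serves mitochondrial fatty acid synthesis. It had 15.0, 16.1, 18.9 and 16.4 CPM in CsA libraries, against 7.38, 8.65, 12.5 and 10.8 CPM in Veh libraries. The groups did not overlap, and the log2 fold change of 0.79 ± 0.15 (edgeR adjusted p = 5.27e-06) was the highest among the tested subunits of all 5 complexes. NDUFA8, an accessory subunit that faces the intermembrane space, averaged 31.8 ± 3.60 CPM in CsA libraries and 22.8 ± 2.23 CPM in Veh libraries (SD, n = 4 each; log2 fold change 0.48, edgeR adjusted p = 5.34e-05). The accessory subunits NDUFA5 and NDUFS6 were also called higher, at 0.36 ± 0.16 and 0.23 ± 0.09. The NDUFA5 call was lost without CsA replicate 3, CsA replicate 4 or Veh replicate 1, 2 or 3, with log2 fold changes of 0.24 to 0.37, and that of NDUFS6 without CsA replicate 1 (0.20) or Veh replicate 1 (0.13). With upper-quartile scaling neither was called in edgeR, and DESeq2 did not call NDUFA5.

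NDUFC2, an accessory subunit of the membrane arm, showed the lowest log2 fold change of complex I. It had 4.11, 4.64, 5.75 and 7.67 CPM in CsA libraries, against 11.1, 13.3, 13.97 and 12.2 CPM in Veh libraries. The groups did not overlap, and the log2 fold change was -1.19 ± 0.18 (edgeR adjusted p = 4.07e-08). The read-through gene NDUFC2-KCTD14, which overlaps it, was at 0 in every library, and KCTD14 averaged 2.75 counts per library. How reads shared by overlapping genes were counted is not given in the sources used here. Its partner in name, NDUFC1, was not called (-0.09 ± 0.12).

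Among the other accessory subunits, NDUFA2 had 24.7, 21.5, 18.4 and 17.9 CPM in CsA libraries, against 27.2, 28.2, 30.7 and 31.6 CPM in Veh libraries. All 4 CsA libraries lay below the Veh libraries, with a log2 fold change of -0.49 ± 0.11 (edgeR adjusted p = 6.92e-05). NDUFB2, a subunit of the distal membrane arm, fell by 0.43 ± 0.11 on the log2 scale (edgeR adjusted p = 0.000489), with 1 of the 4 CsA libraries inside the Veh range. NDUFB10, NDUFA7, NDUFA9 and NDUFS5 were also called lower, with log2 fold changes between -0.28 and -0.16. The calls of NDUFA9 and NDUFS5 stood just under the threshold (edgeR adjusted p = 0.0488 and 0.048) and were lost without any of CsA replicates 2 to 4 or Veh replicates 2 to 4, and that of NDUFS5 also without CsA replicate 1, at -0.18 to -0.11. Both were also lost with DESeq2, limma voom, no filter on low counts and a replicate block. For NDUFA7 the call was lost without CsA replicate 4 (-0.21) or Veh replicate 3 (-0.22), and for NDUFB10 without CsA replicate 3 (-0.21) or Veh replicate 2 (-0.20); DESeq2 called neither. The remaining 9 of 11 NDUFB subunits were not called.

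Complex II, succinate dehydrogenase, belongs to the chain and to the tricarboxylic acid cycle alike, and its catalytic subunits went opposite ways. SDHB, the iron-sulfur subunit, had 69.3, 66.0, 59.4 and 63.7 CPM in CsA libraries, against 41.9, 43.6, 42.6 and 51.3 CPM in Veh libraries. Every CsA library was above every Veh library, with a log2 fold change of 0.54 ± 0.08 (edgeR adjusted p = 4.44e-08). SDHA, the flavoprotein that oxidises succinate, had 79.4, 84.5, 83.1 and 90.5 CPM in CsA libraries, against 105, 108, 112 and 106 CPM in Veh libraries. Here every CsA library was below every Veh library, with a log2 fold change of -0.36 ± 0.07 (edgeR adjusted p = 4.53e-06).

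The anchor subunits of complex II, which hold the enzyme in the membrane, were not called. SDHC had 23.7, 23.0, 18.6 and 19.9 CPM in CsA libraries, against 22.4, 15.5, 18.6 and 20.8 CPM in Veh libraries, with a 95% interval of the log2 fold change from -0.10 to 0.37. SDHD had 8.02, 7.33, 11.7 and 8.95 CPM in CsA libraries, against 9.36, 10.7, 6.78 and 8.13 CPM in Veh libraries, with an interval from -0.32 to 0.37. Both overlapped between the groups. The ratio of SDHB to SDHA counts, which needs no scaling between libraries, was 0.703 to 0.873 in CsA libraries and 0.380 to 0.483 in Veh libraries. That ratio, and those for complexes I, III and IV below, were chosen after the values were seen. The sum of the 4 genes was 179.2 ± 4.48 CPM in CsA libraries and 180.8 ± 3.74 CPM in Veh libraries (SD, n = 4 each).

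The promoters of the pair are shown because the genes went opposite ways; each runs from 250 bases before to 50 bases after the annotated start, from RefSeq in GRCh38.p14. Capitals mark an exact match to the motif searched for YY1, AAGATGGC, which lies after the annotated start of SDHB. It is the only exact match among 4 motifs. Variants of a motif were not searched, so a window without capitals may still hold related sites.
SDHB promoter, chr1:17053983-17054282, minus strand: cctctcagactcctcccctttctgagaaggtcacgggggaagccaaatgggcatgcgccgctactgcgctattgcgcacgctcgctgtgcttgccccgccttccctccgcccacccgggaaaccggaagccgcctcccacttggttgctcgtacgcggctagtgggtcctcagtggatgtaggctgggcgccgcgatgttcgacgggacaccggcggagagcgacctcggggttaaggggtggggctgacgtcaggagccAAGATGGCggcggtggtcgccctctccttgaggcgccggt
SDHA promoter, chr5:218070-218369, plus strand: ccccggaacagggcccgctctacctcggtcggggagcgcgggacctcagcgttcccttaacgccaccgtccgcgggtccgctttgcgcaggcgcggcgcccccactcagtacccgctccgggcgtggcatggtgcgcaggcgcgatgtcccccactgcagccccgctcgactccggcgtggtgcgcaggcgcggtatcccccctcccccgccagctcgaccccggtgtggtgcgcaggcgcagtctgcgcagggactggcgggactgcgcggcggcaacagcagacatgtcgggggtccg

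Complex III, the cytochrome bc1 complex, had 4 genes called higher and 1 lower among 9, with a median log2 fold change of 0.07. These counts stand beside 33.3% higher and 33.5% lower among all genes tested. UQCRH, the acidic hinge protein that helps cytochrome c dock, had 49.0, 50.3, 49.5 and 51.4 CPM in CsA libraries, against 27.7, 34.8, 27.3 and 37.9 CPM in Veh libraries. The CsA libraries lay close together and all above the Veh libraries, with a log2 fold change of 0.66 ± 0.09 (edgeR adjusted p = 7.78e-09). UQCRHL, a near-identical copy of UQCRH, had 35.2, 29.1, 32.9 and 29.7 CPM in CsA libraries, against 19.0, 19.7, 23.9 and 25.1 CPM in Veh libraries (0.56 ± 0.11, edgeR adjusted p = 5.81e-06). Reads of the pair may have been split between them, so their rises are not separate evidence. UQCRBP1, a pseudogene that the rule left out, was also called higher (0.60 ± 0.12, edgeR adjusted p = 7.98e-06).

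UQCR11, a small subunit, had 76.9, 68.4, 69.9 and 79.8 CPM in CsA libraries, against 52.8, 63.3, 66.3 and 68.2 CPM in Veh libraries. The groups lay side by side without overlap (0.25 ± 0.08, edgeR adjusted p = 0.00411), and without Veh replicate 1 the log2 fold change was 0.16 and the call was lost. UQCRQ, another small subunit, had 54.3, 55.4, 47.9 and 48.1 CPM in CsA libraries, against 52.6, 58.3, 60.8 and 67.7 CPM in Veh libraries. Its groups overlapped (-0.21 ± 0.08, edgeR adjusted p = 0.0231), and the call was lost without CsA replicate 3 or 4 or Veh replicate 3 or 4, at -0.19 to -0.14, and with DESeq2. UQCRC2, a core protein, rose by 0.19 ± 0.08 (edgeR adjusted p = 0.0262), a call lost without CsA replicate 1 or 3 or Veh replicate 1, 2 or 3 at 0.15 to 0.19, with DESeq2 and with upper-quartile scaling. Without Veh replicate 1 the complex had 2 higher and 2 lower calls.

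The catalytic Rieske protein gene UQCRFS1 and the core protein gene UQCRC1 were not called, at -0.12 ± 0.13 and -0.08 ± 0.06. The ratio of UQCRH to UQCRC1 counts was 0.272 to 0.305 in CsA libraries and 0.144 to 0.195 in Veh libraries. CYC1, the cytochrome c1 gene that the name rule does not take, averaged 116 ± 5.85 CPM in CsA libraries and 97.9 ± 8.07 CPM in Veh libraries (SD, n = 4 each; log2 fold change 0.26, edgeR adjusted p = 0.000719). The UQCRH promoter is shown for comparison with the complex II pair. The promoter of COX7A2L, a complex IV gene that was also called higher, held no exact match to the motifs searched and is not printed. In the UQCRH promoter capitals mark the motif searched for ETS factors, CCGGAAGT, on the opposite strand.
UQCRH promoter, chr1:46303448-46303747, plus strand: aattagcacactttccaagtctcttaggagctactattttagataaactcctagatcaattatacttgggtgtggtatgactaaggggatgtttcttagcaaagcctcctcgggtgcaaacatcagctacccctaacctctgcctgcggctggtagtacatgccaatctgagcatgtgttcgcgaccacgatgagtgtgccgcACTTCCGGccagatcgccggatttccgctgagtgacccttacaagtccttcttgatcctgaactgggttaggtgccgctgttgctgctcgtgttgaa

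Complex IV, cytochrome c oxidase, had 2 genes called higher and 5 lower among the 13 tested, with a median log2 fold change of -0.12. Over all genes tested the shares were 33.3% higher and 33.5% lower. COX7A2L, a relative of the COX7A subunits known as a factor that joins complexes III and IV into supercomplexes, had 78.6, 75.5, 75.7 and 76.5 CPM in CsA libraries, against 40.7, 49.7, 45.9 and 56.2 CPM in Veh libraries. The CsA libraries were nearly level and all above the Veh libraries, with a log2 fold change of 0.68 ± 0.08 (edgeR adjusted p = 4.92e-11). Its relative COX7A2, the widely expressed subunit, had 55.1, 42.5, 41.4 and 45.0 CPM in CsA libraries, against 51.9, 57.1, 56.1 and 51.5 CPM in Veh libraries. CsA replicate 1 lay inside the Veh range (-0.23 ± 0.08, edgeR adjusted p = 0.0156), and the call was lost without CsA replicate 2, CsA replicate 3 or Veh replicate 2, at -0.20 to -0.17, and with DESeq2. The ratio of COX7A2L to COX7A2 counts was 1.43 to 1.83 in CsA libraries and 0.784 to 1.09 in Veh libraries.

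COX5A, a matrix-facing subunit, had 47.7, 49.8, 43.9 and 49.6 CPM in CsA libraries, against 31.4, 36.6, 38.1 and 42.2 CPM in Veh libraries. The groups did not overlap, with a log2 fold change of 0.38 ± 0.09 (edgeR adjusted p = 0.000158). COX4I1, the regulatory subunit in most tissues, had 217, 194, 198 and 183 CPM in CsA libraries, against 226, 232, 237 and 252 CPM in Veh libraries. All CsA libraries were below the Veh libraries, by a small margin, at -0.25 ± 0.06 (edgeR adjusted p = 0.000211). COX6C was also called lower, at -0.32 ± 0.10 (edgeR adjusted p = 0.00354).

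Isoforms of complex IV subunits that other tissues use were low or at 0. COX6B2, known as the testis isoform of COX6B, had 1.85, 0.977, 2.76 and 2.05 CPM in CsA libraries, against 5.68, 4.97, 5.72 and 4.29 CPM in Veh libraries, without overlap. Its log2 fold change of -1.43 ± 0.27 (edgeR adjusted p = 5.62e-06) was the lowest of all members, at a mean of 18.2 counts per library. The common isoform COX6B1 had 73.4, 78.9, 65.8 and 65.5 CPM in CsA libraries, against 66.0, 71.2, 76.6 and 78.8 CPM in Veh libraries, and was not called (-0.04 ± 0.07). COX4I2, the lung isoform, and COX7B2 had 0 counts in every library. Scaled to total counts without TMM, 3 counts would be 0.600 to 0.757 CPM in CsA libraries and 0.426 to 0.699 CPM in Veh libraries. COX6A2 and COX7A1, the heart and muscle isoforms, were under the filter with 2 to 11 and 3 to 6 counts in CsA libraries, and 8 to 22 and 1 to 8 counts in Veh libraries. COX8C had 1 count in all.

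COX6A1, the liver-type isoform of COX6A, had 82.3, 70.8, 68.1 and 71.6 CPM in CsA libraries, against 82.6, 73.2, 91.5 and 83.8 CPM in Veh libraries. The groups overlapped (-0.17 ± 0.07, edgeR adjusted p = 0.0381), and the call was lost without CsA replicate 2, 3 or 4 or Veh replicate 1, 3 or 4, at -0.17 to -0.12. It was also lost with DESeq2 and in edgeR without the filter on low counts. COX8A had 58.0, 49.8, 50.2 and 61.6 CPM in CsA libraries, against 51.1, 54.3, 56.1 and 67.7 CPM in Veh libraries, which overlapped (-0.05 ± 0.08, not called). NDUFA4, first assigned to complex I and now counted in complex IV, had 32.7, 33.5, 35.4 and 34.8 CPM in CsA libraries, against 35.5, 36.3, 40.4 and 41.5 CPM in Veh libraries. These did not overlap, but the gene was not called (-0.16 ± 0.09, edgeR adjusted p = 0.101). Its paralogue NDUFA4L2, known as a hypoxia-induced gene, was under the filter with 2 to 10 counts in CsA libraries and 4 to 13 in Veh libraries. Without CsA replicate 2 or CsA replicate 3 the lower calls in the complex were 3.

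Complex V, the ATP synthase, had 3 genes called higher and 2 lower among 15, beside 33.3% higher and 33.5% lower of all genes. No call in it reached an absolute log2 fold change of 0.5. ATP5B, the catalytic beta subunit, had 395, 375, 358 and 387 CPM in CsA libraries, against 290, 299, 329 and 333 CPM in Veh libraries. The groups did not overlap (0.28 ± 0.06, edgeR adjusted p = 3.57e-05). ATP5E, the epsilon subunit of the central stalk, had 28.2, 26.4, 25.5 and 27.1 CPM in CsA libraries, against 19.6, 20.6, 21.0 and 22.1 CPM in Veh libraries. It too showed no overlap (0.37 ± 0.10, edgeR adjusted p = 0.00133). The pseudogene ATP5EP2, which the rule left out, had more counts per library than ATP5E (means of 181 and 114). That pseudogene was called higher as well (0.51 ± 0.09, edgeR adjusted p = 1.53e-06). How any reads shared by ATP5E and ATP5EP2 were counted is not given. ATP5F1, a subunit of the peripheral stalk, had 46.7, 44.5, 45.3 and 38.1 CPM in CsA libraries, against 33.2, 34.4, 36.0 and 39.7 CPM in Veh libraries, with CsA replicate 4 inside the Veh range (0.30 ± 0.09, edgeR adjusted p = 0.00252). ATP5D, the delta subunit of the central stalk, fell by 0.30 ± 0.09 on the log2 scale (edgeR adjusted p = 0.00329). ATP5A1, the alpha subunit that alternates with beta in the catalytic ring, was not called (-0.01 ± 0.06).

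ATP5G1, ATP5G2 and ATP5G3 encode the same mature c subunit of the membrane rotor. ATP5G1 had 21.6, 19.8, 19.3 and 15.1 CPM in CsA libraries, against 23.7, 23.2, 32.2 and 26.2 CPM in Veh libraries. The groups did not overlap (-0.45 ± 0.12, edgeR adjusted p = 0.000684). ATP5G2 had 89.9, 90.6, 85.4 and 81.1 CPM in CsA libraries, against 83.9, 82.1, 83.4 and 92.6 CPM in Veh libraries, and ATP5G3 had 82.3, 72.1, 63.0 and 68.3 CPM in CsA libraries, against 65.5, 69.2, 88.7 and 80.6 CPM in Veh libraries. Both overlapped and neither was called, at 0.03 ± 0.07 and -0.07 ± 0.08. Whether the 3 genes differ in their change was not tested. ATP5L2, a copy of ATP5L, had 0 or 1 count per library.

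The largest rises of all members were in assembly factors. NDUFAF2, a chaperone of complex I assembly, had 13.2, 9.28, 11.7 and 8.95 CPM in CsA libraries, against 4.54, 4.78, 5.50 and 8.13 CPM in Veh libraries. NDUFAF4, another complex I assembly factor, had 9.87, 11.7, 7.82 and 6.14 CPM in CsA libraries, against 4.11, 5.71, 4.02 and 5.19 CPM in Veh libraries. Neither gene overlapped between the groups, with log2 fold changes of 0.97 ± 0.18 and 0.92 ± 0.20 (edgeR adjusted p = 7.47e-06 and 6.06e-05).

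NDUFAF1 had 4.94, 7.08, 8.51 and 5.37 CPM in CsA libraries, against 6.38, 10.9, 8.26 and 7.45 CPM in Veh libraries. NDUFAF3 had 40.5, 40.8, 36.3 and 43.5 CPM in CsA libraries, against 29.7, 33.3, 39.8 and 40.4 CPM in Veh libraries. Both assembly factors overlapped and were not called (-0.34 ± 0.19 and 0.19 ± 0.09). NDUFAF1 was called lower without CsA replicate 3 (-0.50) or Veh replicate 1 (-0.47), and NDUFAF3 higher without CsA replicate 3 (0.24), Veh replicate 3 (0.25) or Veh replicate 4 (0.25). Of the symbols matched by prefix only, ATP5SL was called higher (0.26 ± 0.09, edgeR adjusted p = 0.00867), though not with upper-quartile scaling. ATP5S was called lower (-0.49 ± 0.21, edgeR adjusted p = 0.0394), a call lost without CsA replicate 1 or 4 or Veh replicate 2, 3 or 4 at -0.48 to -0.36, with DESeq2 and in edgeR without the filter on low counts. Both read-through genes were at 0.

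**Figure D3:**
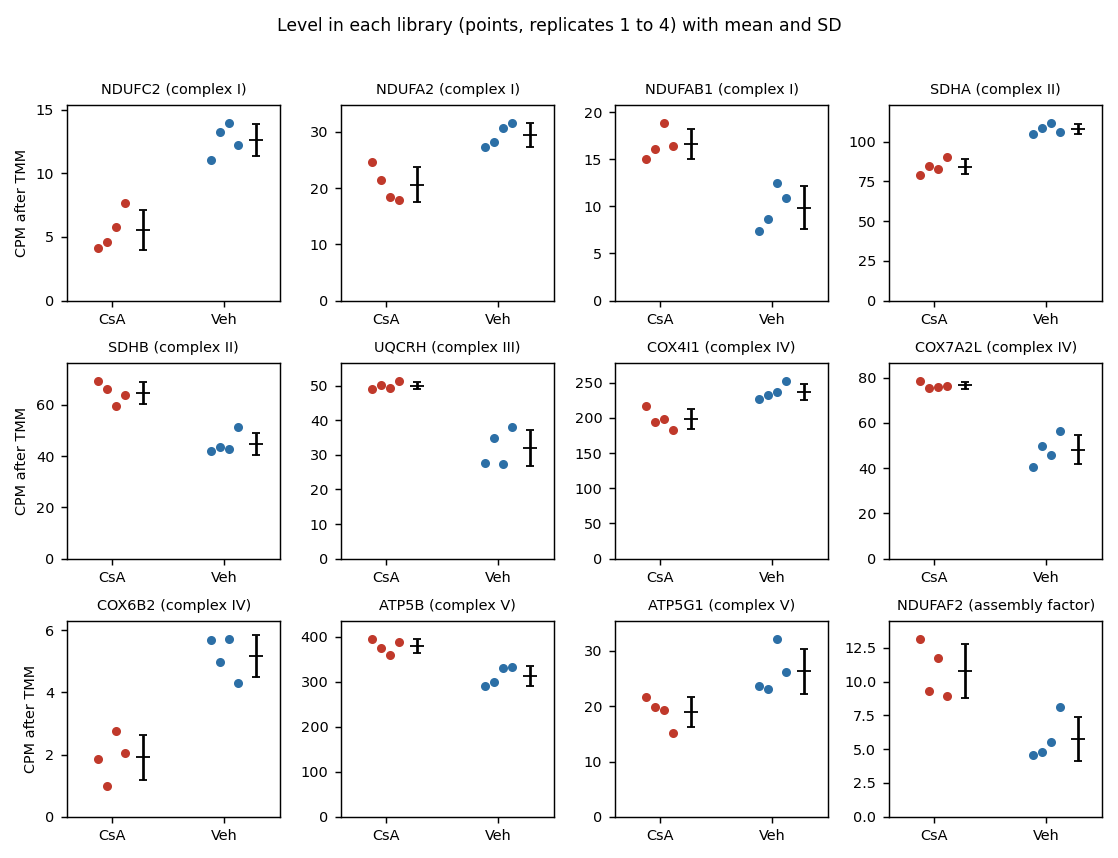
CPM after TMM scaling (y axis, from 0) of 12 members in each of the 4 CsA and 4 Veh libraries, with the mean and SD of each group in black. CsA points lie apart from Veh points in each panel. The panels hold only genes without overlap between groups, which held for 26 of the 84 tested members and 7444 of all 12855 genes tested. SDHA and SDHB separate in opposite directions.

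**Figure D4:**
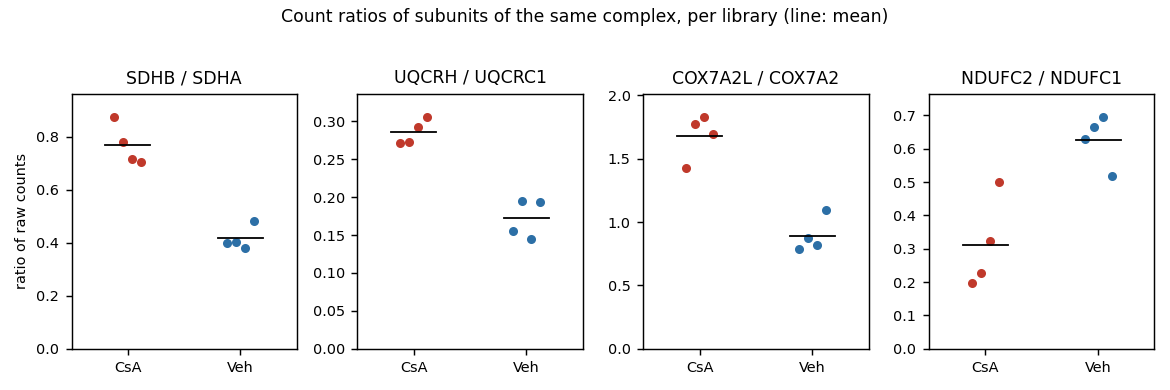
Ratio of raw counts (y axis, from 0) for 4 pairs of subunits of 1 complex each, in the 4 CsA and 4 Veh libraries, with group means as lines. SDHB to SDHA is 0.703 to 0.873 in CsA libraries and 0.380 to 0.483 in Veh libraries.

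Summed over a complex, the levels stayed close. The CPM of complex I genes added up to 1806 ± 79.0 in CsA libraries and 1770 ± 106 in Veh libraries (SD, n = 4 each). For complex III the sums were 549.1 ± 16.98 CPM in CsA libraries and 524.7 ± 48.0 CPM in Veh libraries. For complex IV they were 826.2 ± 39.9 CPM in CsA libraries and 876.4 ± 49.6 CPM in Veh libraries. For complex V they were 1095 ± 37.7 CPM in CsA libraries and 1043 ± 74.6 CPM in Veh libraries. These sums are descriptions, weighted by each gene's abundance and transcript length. For each of these 4 complexes the SD was larger over the Veh libraries. Within the Veh group, replicate 1, which had the most counts, gave the lowest level for 59 of the 84 tested members. Replicate 4 gave the highest for 48. Taken from each member's mean over all CsA and Veh libraries, their median deviations were -0.13 and 0.11 on the log2 scale.

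Genes around the chain were taken from 11 further lists by function. Of 13 transcriptional regulators of respiratory genes 8 were called higher and 1 lower (69.2% called, against 66.9% of all genes). PPARGC1B, a coactivator that drives mitochondrial genes, averaged 18.7 ± 2.64 CPM in CsA libraries and 7.86 ± 0.817 CPM in Veh libraries (SD, n = 4 each; log2 fold change 1.23, edgeR adjusted p = 6.43e-11). ESRRA, a nuclear receptor that works with it, and PPRC1, a related coactivator, rose by 0.70 ± 0.09 and 0.48 ± 0.06 (edgeR adjusted p = 1.58e-09 and 2.11e-10). The single lower call was ESRRG, a relative of ESRRA, with 2 to 6 counts in CsA libraries and 14 to 17 in Veh libraries (-1.47 ± 0.36). YY1 rose by 0.48 ± 0.07 (edgeR adjusted p = 5.66e-08), while NRF1, a factor that binds many respiratory promoters, was not called (0.19 ± 0.10).

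Of 9 mobile carriers and other donors to coenzyme Q, 5 were called higher and 2 lower (77.8% called, against 66.9% of all genes). They include ETFA, a subunit of the flavoprotein that takes electrons from fatty acid oxidation (0.74 ± 0.08, edgeR adjusted p = 2.99e-11), SQRDL, which oxidises sulfide (0.35 ± 0.06), and PRODH, which oxidises proline (-0.52 ± 0.12). Of 14 tricarboxylic acid cycle genes 7 were higher and 1 lower (57.1% called). The lower one, IDH2, the mitochondrial NADP-dependent isocitrate dehydrogenase, averaged 79.1 ± 3.22 CPM in CsA libraries and 159 ± 7.46 CPM in Veh libraries (-1.01 ± 0.06, edgeR adjusted p = 2.02e-20). DLST, of the oxoglutarate dehydrogenase complex, and IDH3B, of the NAD-dependent isocitrate dehydrogenase, rose by 0.33 ± 0.07 and 0.28 ± 0.07. Of 11 genes of mitochondrial DNA maintenance and transcription 5 were higher and 1 lower (54.5% called, against 66.9% of all genes). The helicase gene C10orf2 was at 0.57 ± 0.08, the RNA polymerase gene POLRMT at 0.36 ± 0.06 and the topoisomerase gene TOP1MT at 0.35 ± 0.09.

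The lists of assembly factors outside the name rule had both higher and lower calls, in shares to be read beside the 33.3% higher and 33.5% lower of all genes. For complex I, 1 of 8 was higher and 4 lower, among them ACAD9 (-0.46 ± 0.08), C17orf89 (-0.44 ± 0.12) and FOXRED1 (-0.34 ± 0.11). For complex II, 1 of 4 was higher and 2 lower: SDHAF2, which helps attach the flavin to SDHA, was at 0.42 ± 0.14, C6orf57 at -0.63 ± 0.18 and ACN9 at -0.47 ± 0.20. In the list of CYC1 and complex III assembly factors, 2 of 7 were higher and 2 lower, with TTC19 at 0.45 ± 0.08 and LYRM7 at -0.48 ± 0.14. For complex IV, 5 of 21 were higher and 6 lower, with LRPPRC, which stabilises mitochondrial mRNAs, at 0.50 ± 0.06, COX20 at -0.56 ± 0.08 and SURF1 at -0.70 ± 0.11. Of 6 complex V partners none was higher and 1 lower, ATPIF1, the inhibitor of ATP hydrolysis (-0.46 ± 0.07); USMG5 and ATPAF1 were not called (0.19 ± 0.10 and -0.17 ± 0.13). Of 12 coenzyme Q synthesis genes 4 were higher and 3 lower, with COQ10B at 1.00 ± 0.13, COQ2 at -0.70 ± 0.13 and COQ10A at -0.53 ± 0.16. The supercomplex factors besides COX7A2L, HIGD2A and HIGD1A, were not called (-0.06 ± 0.12 and -0.05 ± 0.13).

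**Figure D5:**
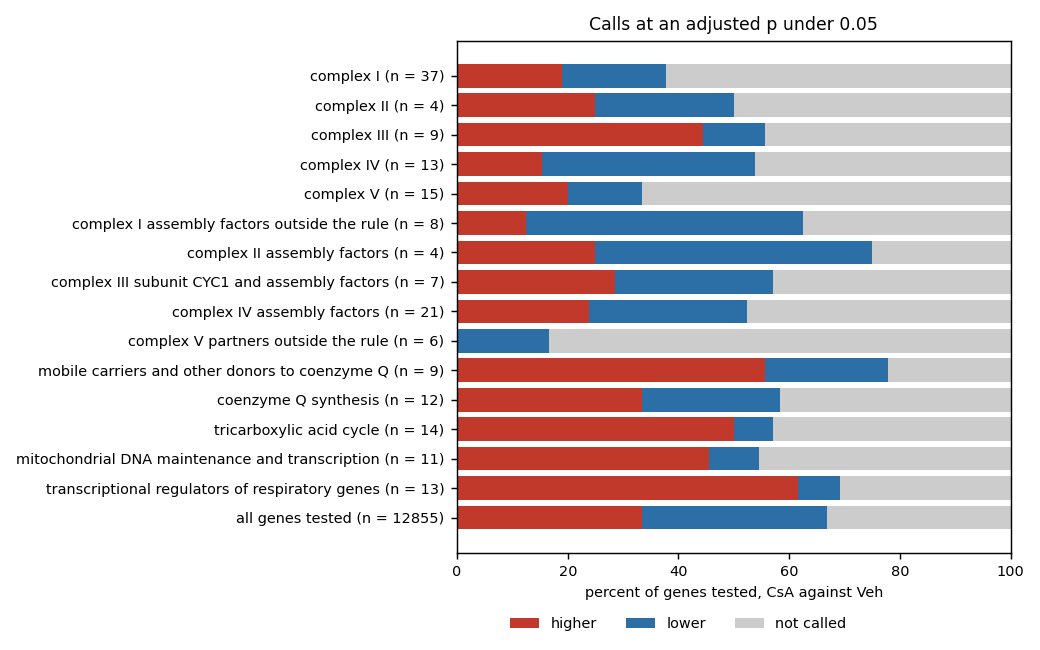
Percent of tested genes (x axis) called higher (red), lower (blue) or not called (grey), CsA against Veh, for the 5 complexes, 10 of the 11 lists of genes around them (supercomplex factors left out) and all 12855 genes tested. Complexes I and V have the largest grey shares among the 5 complexes.

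Promoter windows were searched for exact matches to motifs of 4 respiratory gene regulators. Variants of the motifs were not searched, and differences in share were not tested. Leaving out the read-through genes, 74 members had a RefSeq promoter window of the length given above. The NRF1 motif GCGCATGCG, searched on both strands like all of them, was in 13.5% of member windows and 2.10% of all 27305 windows. For the ETS motif CCGGAAGT the shares were 12.2% and 4.44%, for the YY1 motif AAGATGGC 14.9% and 3.03%, and for the ERR motif TCAAGGTCA 1.35%, which is 1 member (SDHD), and 0.359%. The median log2 fold change was 0.01 over the 10 tested members with the NRF1 motif and -0.04 over the 60 without it. It was 0.02 and -0.01 for the ETS motif, and 0.00 and -0.04 for the YY1 motif. A match describes letters in a window and is not a measured binding site.

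AGO2 PAR-CLIP clusters fell on a share of these genes near that of all genes in the count table, counting clusters on either strand. Only 12855 of the 23368 rows of that table passed the filter on low counts, against 84 of the 93 members. Shares among the genes that passed were not computed. A cluster was given to a member by the authors' annotation of its position alone. Cluster sequences were not compared with tRNAs or other RNAs encoded inside or near a member. Whether the bound RNA came from a member's own transcript was therefore not tested. Each AGO2 list pools the 2 libraries of a treatment, so no test between treatments can be made. The CsA list put 34 of its 36812 clusters on 27 members, or 29.0% of them, and the Veh list put 65 of 56985 on 42, or 45.2%; over all genes of the count table the shares with a cluster were 33.6% in the CsA list and 42.2% in the Veh list. In both lists 20 members had a cluster, and 18 clusters overlapped by at least 1 base on the same strand, which is 52.9% of those on members in the CsA list and 27.7% in the Veh list. The list for all Argonaute proteins, whose treatment is not labelled, had 23 clusters on 19 members. By the authors' annotation 50% of the member clusters of the CsA list and 56.9% of those of the Veh list were intronic, against 42.6% and 42.4% of all clusters.

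Clusters in 3′ untranslated regions, where microRNAs usually act, lay on 2 members in each AGO2 list, NDUFA8 and NDUFB4, and on NDUFA4 and NDUFB4 in the all-Argonaute list. The NDUFB4 cluster, at chr3:120320501-120320520 in hg19, lies on the strand opposite to the gene. The site on NDUFA8, at chr9:124906437-124906450, is the only one on the gene's own strand, and the authors' score ranked it 35603 of 36812 in the CsA list and 52231 of 56985 in the Veh list. The most abundant miRNAs were ranked by their mean level over all miRNA libraries, CsA and Veh together. Those libraries were taken after 48 h of treatment, later than the 24 h of PAR-CLIP. A site for the seed (bases 2 to 8) of 1 of the 20 most abundant miRNAs, 18 of which had a RefSeq sequence, was in 1 member cluster of each list, against 1.54% of all CsA clusters and 1.64% of all Veh clusters. In the CsA list it was a site for miR-21-5p in a cluster that the authors annotated to the promoter of NDUFA5, at chr7:123241989-123242013 on the minus strand, ranked 511 by score; no genome of that build was used here to check the annotation. In the Veh list it was a site for miR-183-5p near the start of COX8A. Capitals mark the seed in the miRNA and its complement in the cluster.
hsa-miR-21-5p: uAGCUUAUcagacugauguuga
NDUFA5 cluster: ATAAGCTagttggtgaggtacagat
NDUFA8 cluster: catcgactgatagt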

How the data were processed

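The authors deposited mRNA counts per gene symbol as whole numbers, together with a table of their own comparison holding log2 fold changes and adjusted p-values. The submitters' processing notes name HTSeq, TopHat, Bowtie, cutadapt, DESeq2 and CASAVA 1.8.2 and the genome build hg19. What each tool did, its settings and whether strand was used were not stated there, and overlapping genes may therefore share reads. The deposited PAR-CLIP lists give a position, an annotation, a sequence and the authors' score per cluster; neither the score's unit nor the cluster caller was stated, and scores served only to rank or filter clusters within a list.

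Counts were fitted in R 4.3.3 with edgeR 4.0.16 (filterByExpr, TMM normalization, quasi-likelihood test with group as the only term, 4 CsA against 4 Veh libraries). Benjamini-Hochberg adjustment of p-values ran over all 12855 genes tested, and an adjusted p under 0.05 is a call. Fold changes are log2, CsA over Veh, ± the standard error implied by the F statistic. The floor for a gene at 0 is 3 counts and covers counting error only. Libraries of a group differed by more than sampling noise (chi-square per degree of freedom 1.28 or more). Replicate numbers were checked and did not pair the libraries. The authors' deposited table lists all 84 tested members and gives 27 an adjusted p-value under 0.05; each of the 27 was called here with the same sign.

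Members and gene lists were chosen with earlier results of these data known. The genes named with values are the 4 called subunits per complex with the smallest p and a mean of at least 10 counts, all SDH genes, tested isoform pairs, NDUFAF factors, the 3 largest rises and falls, and up to 3 genes per outside list by p; others are examples chosen after their values were seen. Some genes that these rules select are not reported here, and counts include them. Promoter and miRNA sequences are from RefSeq (GRCh38.p14), matched by symbol or synonym for all 93 members; clusters were compared with bedtools 2.31.1 and have hg19 coordinates, 1-based. Alternatives were DESeq2 1.42.0, limma 3.58.1 (voom), other scalings, no filter, a replicate block, each library left out, and other cluster rules. The fit was tested on simulated data.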

Additional observations from a re-analysis of the deposited data

Results flagged for a closer look

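In 62 groups of 4 libraries, taken from 31 named members, the highest or lowest library stood apart from the other libraries of its group in 2 cases by Dixon's criterion, and chance alone flags about 1 group in 20. NDUFS1 had 69.0 CPM in CsA replicate 4, against 86.0 to 86.6 CPM in the other CsA libraries. ATP5G2 had 92.6 CPM in Veh replicate 4, against 82.1 to 83.9 CPM in the other Veh libraries. The call of NDUFS1 held without each library in turn.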

How the results depend on the processing

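Of the 37 called members, 24 (15 higher and 9 lower) kept call and direction in all 14 alternative fits, 35 of the 47 members not called stayed so, and none of the called members reversed. With a call also required to reach an absolute log2 fold change of 0.5, 7 members were higher and 2 lower. Against 17 lower calls, DESeq2 gave 9 and upper-quartile scaling 26; by complex, DESeq2 gave 3 lower in complex I, 0 in complex III and 3 in complex IV, and upper-quartile scaling gave 3 in complex III and 8 in complex IV; the cause was not tested. With 1 library left out, the lower calls ranged from 11 to 20 over all members, from 4 to 9 in complex I, from 0 to 2 in complex III and from 3 to 5 in complex IV, and the higher calls in complex III from 2 to 4. The count of higher calls over all members, and the calls of complexes II and V, stayed within 1.5 times in the fits that did not add the size rule. Replicate numbers did not pair the libraries (correlations of -0.08 to 0.03 between same-numbered libraries, none matching its own number best); with a replicate block 20 members were higher and 15 lower. Among clusters with a score at or above the median of their list, the CsA list held 16 members and the Veh list 29; with 3' untranslated region clusters only, each held 2. Depth limits members under about 20 counts per library, such as COX6B2, and pooled cluster lists carry no replicate error.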
